A study of Mus musculus with 24 samples.

Results

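The genes described here are Trp53, which encodes the transcription factor p53, and known regulators and targets of p53. They were taken by gene symbol from a list of 32 names, of which 31 matched a row among the 46078 genes of the deposited tables. The name Tap1l matched no row and was not analysed here, and the CDK inhibitor gene Cdkn1a is not on the list. All 31 genes were high enough to be tested in cultured myoblasts. In sorted satellite cells 30 were tested, and Perp stayed below the filter on low values, which asked for at least 0.5 RPKM in at least 4 of the 8 libraries of a table.

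p53 is a tumour suppressor that binds DNA as a tetramer and switches on genes for cell cycle arrest, cell death, DNA repair and metabolism when DNA is damaged or other stress arises. Its amount is set mainly by protein turnover: Mdm2, a ubiquitin ligase and itself a p53 target, marks p53 for degradation, and its relative Mdm4 restrains p53 as well. p53 protein was not measured in these data. In muscle, p53 is studied for its part in the choice of satellite cells, the muscle stem cells, between cycling, differentiation and death.

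RNA-seq gave 4 groups of 4 libraries, all from C57BL/6 mice aged 2 to 4 months. In culture, satellite cell-derived myoblasts of genotype Chd4fl/fl from resting muscle were kept proliferating, given an adenovirus for Cre (AdCRE) or for GFP (AdGFP) and collected at 72 hours. The in vivo groups are satellite cells of Chd4dPax7ER or Chd4fl/fl mice, isolated on day 3 after injury with cardiotoxin by sorting for alpha7-integrin and CD34 and against SCA1 and CD45. Only the case virus coded for Cre, and only the case genotype label names Pax7ER, so Cre activity and loss of Chd4 cannot be told apart. Whether controls carried Cre or had the same treatment, and whether libraries came from separate animals or cultures, was not given in the sources used here. Hence p-values measure the spread between these libraries, which may be technical.

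Chd4, the ATPase gene of the NuRD complex that the design targets, held 15.8 to 23.9 RPKM (reads scaled to gene length and to the reads of the library) in AdCRE against 67.8 to 85.5 in AdGFP, and 48.7 to 64.1 in Chd4dPax7ER against 119 to 135 in Chd4fl/fl. In both settings the exact two-sided permutation test gave p = 0.0286, which 70 arrangements cannot go below. It shuffled all 8 libraries of a setting freely and left out the pairing of culture libraries by replicate number described below. RPKM values summed to between 286802.5 and 326812.0 per library, and read depth is unknown. Each of 10 myogenic markers, among them Pax7 and Myod1, reached 0.5 RPKM in at least 1 library of every group. Ptprc, the gene of the sorted-out CD45, was at or under 0.59 RPKM in every library. Ly6a, the gene of the sorted-out SCA1, is among 5 fibro-adipogenic markers. Their sum in vivo was 110 to 203 RPKM in Chd4dPax7ER and 24.2 to 31.9 in Chd4fl/fl, which does not give the level of Ly6a alone. In a bulk sample, fewer cells of a type and less RNA per cell cannot be told apart.

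Sequences near the start sites were searched for letters that match the known p53 motif; no binding was measured. p53 binds a pair of decamers, each held by one p53 dimer. The region from 250 bases before to 50 after each annotated start (RefSeq, GRCm38.p6) was searched for the p53 decamer consensus with no mismatch, which reads the same on both strands, and for 2 adjacent decamers with up to 3 mismatches in all and the central C and G of each kept. Of the 31 genes, 23 had a promoter entry. The first search matched 10 of these 23 (43.5%) and 9.55% of 27025 genes overall; the second matched 5 (21.7%) and 1.63%. A match is a description of letters, and these genes are on the list because p53 is known to act on many of them.

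The matches below are printed 5′ to 3′ on the strand of the gene, with the match in capitals. The first 4 genes are those that passed as higher in vivo, and the other 4 did not pass there.
Ccng1 (chr11:40755457-40755486, minus strand): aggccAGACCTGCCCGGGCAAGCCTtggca
Mdm2 (chr10:117710925-117710954, minus strand): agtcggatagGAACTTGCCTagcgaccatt
Bax (chr7:45467080-45467109, minus strand): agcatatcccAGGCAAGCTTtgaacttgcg
Aen (chr7:78895932-78895961, plus strand): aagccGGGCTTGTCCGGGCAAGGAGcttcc
Trp53 (chr11:69580279-69580308, plus strand): cggaaGGACTTGCCCTTACTTGTTAtggcg
Sesn1 (chr10:41887261-41887290, plus strand): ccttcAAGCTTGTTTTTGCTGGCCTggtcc
Bbc3 (chr7:16309481-16309510, plus strand): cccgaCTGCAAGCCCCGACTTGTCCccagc
Gadd45a (chr6:67037428-67037457, minus strand): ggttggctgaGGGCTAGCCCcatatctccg

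The pair in Ccng1 has 1 mismatch and begins 195 bases before the start, while the pairs in Aen, Trp53, Sesn1 and Bbc3 have 3 mismatches each. The Aen match lies 121 bases before one annotated start and 10 after another. Mdm2, Bax and Gadd45a show a single decamer, which begins 186, 201 and 40 bases before the start. A decamer without mismatch stood in 4 of the 9 genes with an entry that passed as higher in vivo (44.4%) and in 6 of the other 14 (42.9%).

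In Chd4dPax7ER cells, 11 of 30 tested p53 pathway genes rose (36.7%, against 14.7% of all 13344 genes tested) and 2 fell (6.67%, against 11.9%). The list was chosen with earlier results of these data known, so shares set beside those of all genes, here and below, are a description. The genes that rose were Trp53inp1, Ccng1, Phlda3, Plk3, Fas, Eda2r, Zmat3, Mdm2, Plk2, Bax and Aen, and those that fell were Pmaip1 and Mdm4. The groups did not overlap for 11 genes with higher values (36.7%, against 16.0% of all genes) and for 2 with lower values (6.67%, against 14.3%). The median log2 fold change was 0.34, beside -0.02 over all genes. Fold changes are differences of log2(RPKM + 0.5), which understate the change of low genes, and adjusted p-values are limma values after Benjamini-Hochberg adjustment over all genes, with 0.05 as the threshold.

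**Figure D1:**
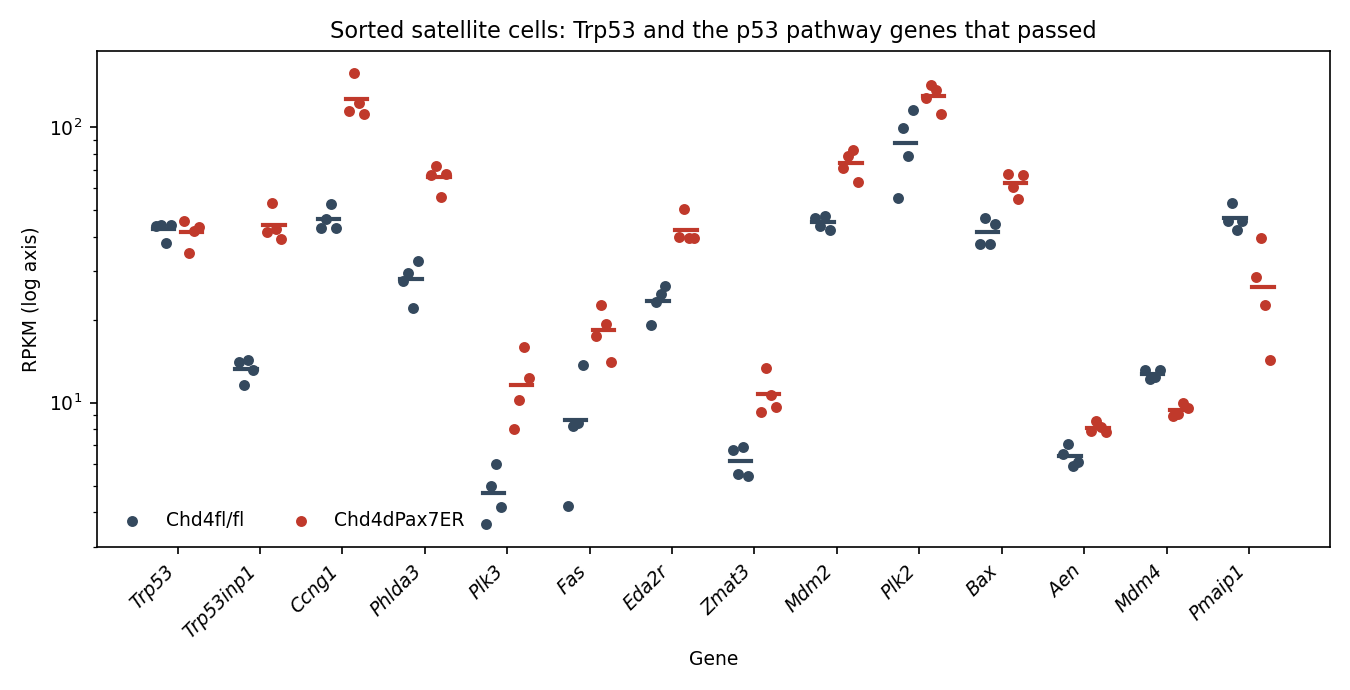
RPKM (log axis) of Trp53 and of the 13 p53 pathway genes that passed in sorted satellite cells, ordered by fold change. Each point is 1 of 4 libraries per group and the bars are group means; Trp53 lay at 35.1 to 45.8 RPKM in Chd4dPax7ER and 38.0 to 44.3 in Chd4fl/fl, while the groups of Ccng1, Trp53inp1 and Phlda3 lie apart.

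Among p53 and its feedback genes in vivo, the Trp53 transcript itself did not pass. It held 45.8, 35.1, 42.1 and 43.6 RPKM in Chd4dPax7ER replicates 1 to 4 and 43.7, 44.3, 38.0 and 44.2 in Chd4fl/fl replicates (log2 fold change -0.03, 95% interval -0.25 to 0.18, adjusted p = 0.823). RefSeq also lists a pseudogene, Trp53-ps, and how reads shared by the copies were treated (not given in the sources used here) could touch this level. Ccng1, which encodes cyclin G1 and is a classic p53 target, held 115, 157, 122 and 112 RPKM against 43.2, 46.3, 52.5 and 43.2. Each Chd4dPax7ER library was thus above each control, and Ccng1 rose from 46.3 ± 4.39 to 127 ± 20.8 (SD, n = 4; log2 fold change 1.43, SE 0.11, adjusted p = 9.74e-05). Trp53inp1, which encodes a nuclear protein that acts with p53 in arrest, death and autophagy, held 41.6, 53, 42.9 and 39.2 RPKM against 14.0, 11.6, 14.3 and 13.2. This was the largest change of the set (44.2 ± 6.10 against 13.3 ± 1.19, log2 fold change 1.69, SE 0.11, adjusted p = 2.83e-05).

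The 2 restraining genes moved in opposite directions. Mdm2 held 71.4, 78.8, 82.5 and 63.2 RPKM in Chd4dPax7ER and 46.8, 43.9, 47.8 and 42.4 in Chd4fl/fl, and rose (log2 fold change 0.70, SE 0.09, adjusted p = 0.000865). Mdm4 held 8.97, 9.08, 10.0 and 9.58 RPKM against 13.1, 12.2, 12.4 and 13.2, and fell (-0.42, SE 0.08, adjusted p = 0.00503). For both genes the groups did not overlap, and the calls held whichever of the 8 libraries was left out. Ppm1d, the phosphatase Wip1 that dampens p53 signalling, held 14.1 ± 1.95 against 15.4 ± 0.824 RPKM and did not pass (-0.13, 95% interval -0.38 to 0.11).

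Of 12 cell death genes tested in vivo, 5 rose, 1 fell and 6 did not pass, where 14.7% of all genes rose and 11.9% fell. The role groups used here and below were set after the values were seen. Phlda3, which encodes an inhibitor of AKT signalling, held 67.2, 72.3, 55.8 and 67.8 RPKM against 27.7, 29.5, 22.1 and 32.8. Its groups lay well apart, with a log2 fold change of 1.22 (SE 0.13, adjusted p = 0.000294). Eda2r, a receptor of the tumour necrosis factor family, held 39.9, 50.7, 39.5 and 39.6 RPKM against 19.2, 23.3, 24.8 and 26.5 (0.84, SE 0.12, adjusted p = 0.00132). Bax, the pore-forming effector of mitochondrial death, held 67.9, 60.8, 55.1 and 67.3 RPKM against 37.8, 47.0, 37.6 and 44.7 (0.58, SE 0.10, adjusted p = 0.0033). All 4 case libraries of both genes were above all controls. The death receptor gene Fas held 17.5, 22.6, 19.3 and 14.0 RPKM against 4.21, 8.26, 8.42 and 13.7. Its control libraries spread widely and the highest nearly met the lowest case library (1.13, SE 0.29, adjusted p = 0.0208, but 0.0544 without Chd4dPax7ER replicate 2).

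Aen, an exonuclease gene, showed the smallest rise, with 7.90, 8.58, 8.18 and 7.80 RPKM against 6.49, 7.09, 5.89 and 6.09 (log2 fold change 0.32, SE 0.10, adjusted p = 0.0339). That call held in 1 of 8 fits with a library left out (adjusted p up to 0.0803, lost without any Chd4dPax7ER replicate or without Chd4fl/fl replicates 1, 3 or 4) and was lost with TPM scaling (0.067). Pmaip1, which encodes the BH3-only protein NOXA, went the other way, with 28.5, 39.7, 22.6 and 14.3 RPKM in Chd4dPax7ER and 45.8, 52.9, 42.5 and 45.6 in Chd4fl/fl. The case libraries were all below the controls but differed among themselves by more than 2-fold (-0.90, SE 0.25, adjusted p = 0.028). With Chd4fl/fl replicate 1, 2 or 4 or Chd4dPax7ER replicate 3 left out, the adjusted p was between 0.0567 and 0.0718, and with no filter 0.054. Bbc3, which encodes the BH3-only protein PUMA, held 3.85 ± 1.39 against 2.71 ± 1.09 RPKM with overlapping groups (0.45, SE 0.28, adjusted p = 0.263). Tnfrsf10b, a TRAIL receptor gene (0.35), Pidd1 of the PIDDosome (0.29), Trp53i11 (0.18), Ei24 (0.08) and Apaf1 of the apoptosome (-0.10) had log2 fold changes that did not pass. Perp, which encodes a membrane protein of desmosomes and p53-dependent death, was below the filter with 1.34, 1.56, 0.98 and 0.31 RPKM against 0.25, 0.25, 0.44 and 0, and was not tested.

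Of 8 arrest, growth and stress genes in vivo, 3 rose and none fell with limma (14.7% and 11.9% of all genes did). Plk3, a stress-responsive polo-like kinase gene, held 8.04, 10.2, 15.9 and 12.3 RPKM against 3.62, 5.00, 5.99 and 4.17 (log2 fold change 1.20, SE 0.21, adjusted p = 0.00389). Zmat3, an RNA-binding zinc finger gene, held 9.23, 13.4, 10.7 and 9.68 RPKM against 6.76, 5.52, 6.88 and 5.43 (0.75, SE 0.14, adjusted p = 0.00453). The groups of both genes did not overlap and both passed whichever library was left out. Plk2, the related kinase gene, held 128, 142, 137 and 112 RPKM against 55.4, 99.5, 78.6 and 116. One control lay above the lowest case library, and the call (0.62, SE 0.20, adjusted p = 0.0475) held in 1 of 8 fits with a library left out. It was lost without any Chd4dPax7ER replicate or without Chd4fl/fl replicates 1, 2 or 3 (adjusted p up to 0.105), and with TPM or quantile scaling (0.0618 and 0.0791).

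Gdf15, a stress-induced cytokine gene, was low in sorted cells and did not pass, with 0.97, 0.80, 2.34 and 1.36 RPKM against 0.17, 1.11, 0.45 and 0.87 (log2 fold change 0.71, SE 0.34, adjusted p = 0.153). The antiproliferative gene Btg2 (15.5 ± 3.00 against 11.5 ± 4.06 RPKM, 0.46) did not pass either. Gadd45a, a growth arrest gene (-0.06), Dram1 of the autophagy and lysosome pathway (0.06) and the sestrin gene Sesn1 (-0.17) had intervals around 0. None of the 4 DNA repair genes passed limma (14.7% of all genes rose and 11.9% fell). Rrm2b, the p53-inducible ribonucleotide reductase subunit, came nearest with 2.58, 3.00, 2.28 and 2.14 RPKM against 1.32, 2.04, 1.58 and 1.55 (0.50, SE 0.17, adjusted p = 0.0525). The damage recognition genes Xpc (-0.20) and Ddb2 (-0.21) and the translesion polymerase gene Polk (-0.14) had intervals around 0 as well.

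Chd4dPax7ER replicate 2 was the highest case library for 8 of the 11 genes that rose, and replicate 4 the lowest for 6. Without replicate 2, 8 genes rose and 2 fell. That library also held the most of other marker sums: 2418.5 RPKM over 7 mature fibre markers, against 854 to 1155.1 in the other case libraries and 266 to 548 in controls. It had the lowest sum over 15 mitotic genes (238 RPKM, against 386 to 468 and 470 to 634). Marker sums of other cells ranged higher in Chd4dPax7ER too, though the groups overlapped for the leukocyte, Schwann and endothelial sums. Over 5 endothelial markers the groups held 3.82 to 10.9 against 3.06 to 5.79 RPKM, and the 1 gene tested did not pass. Summed over 5 fibro-adipogenic markers the groups held 110 to 203 against 24.2 to 31.9 RPKM, over 4 pericyte markers 11.6 to 35.5 against 3.91 to 8.14, over 4 Schwann markers 8.47 to 38.2 against 3.15 to 9.71 and over 9 leukocyte markers 77.5 to 164 against 58.5 to 114. In these lists 2 of 4 fibro-adipogenic genes tested, 3 of 3 pericyte, 1 of 7 leukocyte and 7 of 7 fibre genes rose. Over all genes 14.7% rose, and the leukocyte share (14.3%) was near that. Of the Schwann markers, S100b and Sox10 were under 0.5 RPKM in every Chd4fl/fl library and were tested only through the other group, so no count is given for them, and Cd3e of T cells stayed under 0.5 RPKM in all libraries. Summed over the 10 myogenic markers the groups held 1589.6 to 2158.6 against 883 to 1203.4 RPKM, and 5 rose and 1 fell (14.7% and 11.9% of all genes did). Their part in the p53 pathway changes was not tested.

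In cultured myoblasts, no p53 pathway gene of 31 passed limma (0.656% of all 13567 genes did), and 8 had an unadjusted p under 0.05 (15.6% of all genes). The libraries pair by replicate number (correlated deviations within pairs), and with the number as a block 14 of 31 rose (45.2%, against 17.5% of all genes) and 2 fell (6.45%, against 18.7%). Within the pairs, 17 of the 31 genes were higher in AdCRE in all 4 pairs (25.1% of all genes were) and 5 were lower in all 4 (27.1% of all genes). The groups did not overlap for 5 genes, all higher in AdCRE (16.1% of the 31, against 3.80% of all genes higher and 6.21% lower). The median log2 fold change was 0.12, beside -0.01 over all genes. Some marker sums moved in culture too: over 5 fibro-adipogenic markers AdCRE held 10.3 to 16.5 and AdGFP 2.14 to 4.93 RPKM, over 4 pericyte markers 182 to 406 against 52.2 to 107, and over 9 leukocyte markers 11.8 to 24.6 against 3.06 to 9.30. Over 5 endothelial markers they held 1.67 to 2.63 against 0.85 to 1.16. The groups overlapped for the Schwann sum (0.491 to 0.622 against 0.293 to 0.795) and the myogenic sum (1798.0 to 2213.6 against 1550.1 to 1882.6). Such sums can rest on single genes. Dcn, Dpt, Pdgfra and Pi16 were under 0.5 RPKM in every AdCRE library, so the fibro-adipogenic sum there was mostly Ly6a. The 3 pericyte genes tested had a median log2 fold change of 0.29, and the groups did not overlap for 1 of them. Summed over 7 mature fibre markers, the levels were 1139.6, 4386.2, 3661.8 and 2178.1 RPKM in AdCRE libraries 1 to 4, against 883, 3563.9, 3335.9 and 1428.1. Every AdCRE sum was above its partner, and 6 of 7 fibre genes rose with the block and none without it. Of the leukocyte markers 8 were under 0.5 RPKM in every library, Ptprc included, and Laptm5 made up the rest; the part of all these markers in the p53 pathway values was not tested. All calls in culture below are limma calls with the block, and adjusted p-values without it are given for comparison.

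**Figure D2:**
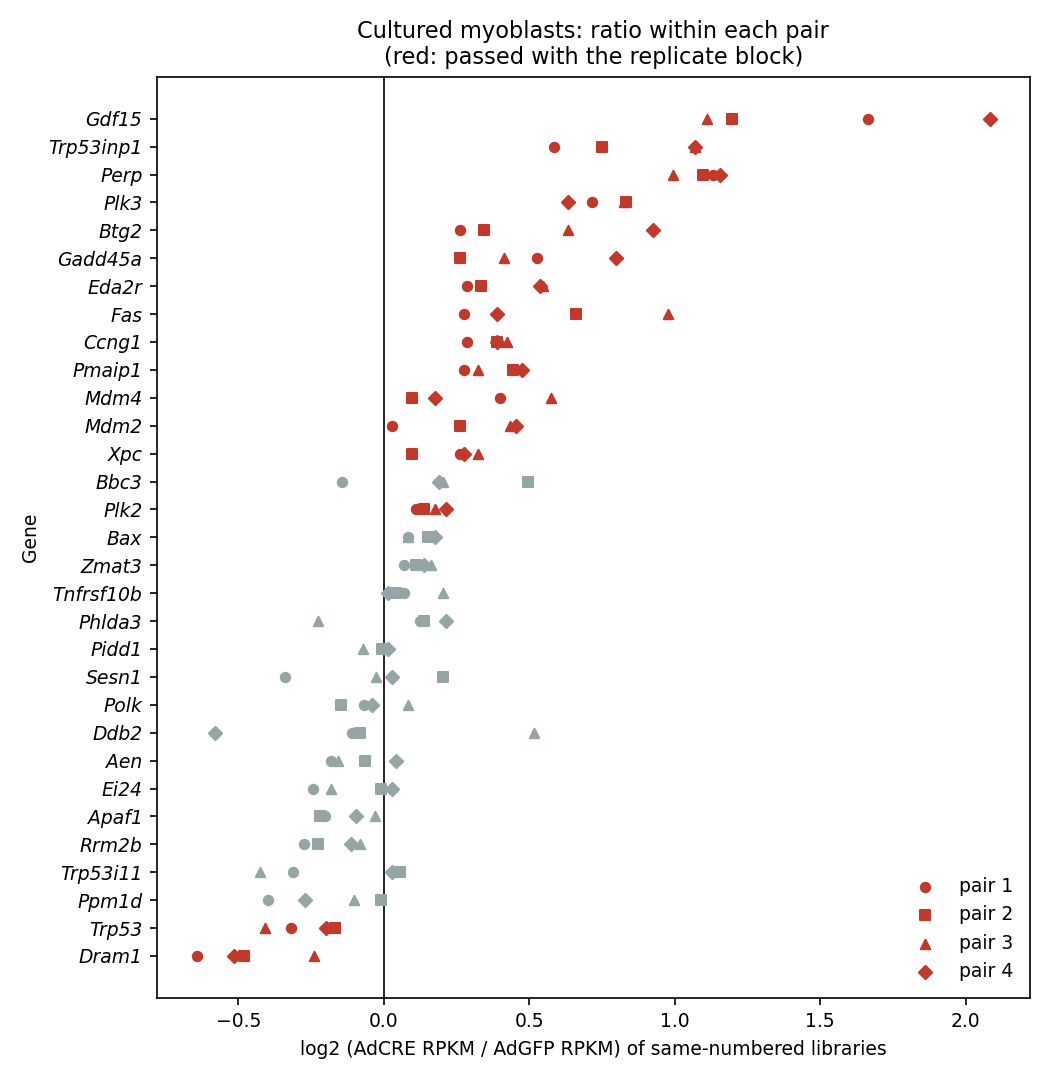
Log2 ratio of AdCRE to AdGFP RPKM in each of the 4 same-numbered pairs of myoblast libraries, 1 row per gene and 1 marker shape per pair, ordered by fold change. Red marks the 16 genes that passed with the replicate block: all 4 pairs of Gdf15, Perp, Trp53inp1 and Plk3 lie to the right of 0, and those of Trp53 and Dram1 to the left.

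Trp53 fell slightly in AdCRE cultures. Its levels were 27.0, 26.6, 27.2 and 33.4 RPKM in AdCRE replicates 1 to 4 and 33.7, 29.9, 36.1 and 38.4 in AdGFP replicates, so that each AdCRE library was below its partner by a factor of 0.754 to 0.889 (log2 fold change -0.27, adjusted p = 0.00625, and 0.268 without the block). Of the feedback genes, Trp53inp1 held 52.4, 36.3, 39.2 and 52.3 RPKM against 34.9, 21.6, 18.7 and 24.9, and rose in groups that did not overlap (0.86, adjusted p = 0.000704, without the block 0.117). Ccng1, the most abundant of the genes in culture, held 328, 262, 282 and 325 RPKM against 268, 200, 211 and 248, with ratios of 1.22 to 1.34 in the pairs (0.37, adjusted p = 0.00118, without the block 0.216). Replicates 1 and 4 were the higher ones of Ccng1 in both groups.

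Changes of Mdm2 and Mdm4 in culture were small. Mdm2 held 84.0, 59.1, 69.6 and 81.6 RPKM against 81.9, 49.2, 51.6 and 59.6 (log2 fold change 0.29, adjusted p = 0.0176), and the first pair differed by a factor of only 1.02. Mdm4 held 10.3, 8.63, 9.71 and 13 RPKM against 7.79, 8.05, 6.53 and 11.5 (0.30, adjusted p = 0.024). Both calls depend on single pairs: with each pair left out in turn, each gene passed in 2 of 4 fits (adjusted p up to 0.07 and 0.0722), and without the block the adjusted p was 0.48 and 0.483. Ppm1d did not pass (-0.18, adjusted p = 0.0755).

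Of 13 cell death genes in culture 4 rose and none fell (17.5% and 18.7% of all genes did). Perp held 2.63, 2.18, 1.85 and 1.69 RPKM against 1.20, 1.02, 0.929 and 0.760, a ratio of 1.99 to 2.23 in each pair (log2 fold change 0.80, adjusted p = 0.000631). Eda2r held 35.7, 42.9, 41.0 and 51.3 RPKM against 29.2, 33.9, 28.1 and 35.4 (0.42, adjusted p = 0.00177). The groups of both genes did not overlap, though without the block the adjusted p was 0.0653 and 0.174. Pmaip1 held 38.6, 30.8, 32.2 and 23.9 RPKM against 31.9, 22.7, 25.8 and 17.2 (0.37, adjusted p = 0.00157, without the block 0.422). It differed between replicates more than between viruses, yet every pair was higher in AdCRE. Fas was near 1 RPKM, with 1.63, 1.41, 1.33 and 1.19 against 1.35, 0.891, 0.676 and 0.902 (0.39, adjusted p = 0.0218, without the block 0.287), and passed in 1 of 4 fits with a pair left out. Bax was higher in all 4 pairs by factors of 1.06 to 1.13 and just missed the threshold (0.12, adjusted p = 0.0528). The other 8 had log2 fold changes from -0.16 (Trp53i11) to 0.17 (Bbc3).

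Of 8 arrest, growth and stress genes in culture, 5 rose and 1 fell (17.5% and 18.7% of all genes did). Gdf15 changed most, with 29.3, 18.2, 16.1 and 14.0 RPKM against 9.24, 7.96, 7.44 and 3.30, a ratio of 2.16 to 4.24 (log2 fold change 1.44, adjusted p = 0.000671, without the block 0.108). Plk3 held 15.0, 6.66, 7.75 and 6.98 RPKM against 9.17, 3.74, 4.37 and 4.51. Replicate 1 stood high in both groups, while the pair ratios were close, at 1.55 to 1.78 (0.69, adjusted p = 0.000349, without the block 0.351). Btg2 held 56.3, 55.8, 50.3 and 47.4 RPKM against 46.8, 44.1, 32.3 and 25, in groups that met without overlap (0.54, adjusted p = 0.00719, without the block 0.239). Gadd45a held 148, 130, 118 and 62.3 RPKM against 103, 109, 89.2 and 35.8, with replicate 4 lowest in both groups (0.49, adjusted p = 0.00408, without the block 0.608).

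The remaining calls in culture were weaker. Plk2 held 70.6, 106, 100 and 51.3 RPKM against 65.4, 96.3, 88.8 and 44.2, with ratios of 1.08 to 1.16 (log2 fold change 0.16, adjusted p = 0.0175, without the block 0.861). Dram1 fell, with 0.698, 1.14, 1.19 and 1.25 RPKM against 1.09, 1.60, 1.41 and 1.79 (-0.33, adjusted p = 0.0204, without the block 0.397). Xpc was the 1 DNA repair gene of 4 that rose (17.5% of all genes did), with 7.54, 6.62, 6.95 and 6.07 RPKM against 6.27, 6.21, 5.58 and 5.03 (0.22, adjusted p = 0.0194, without the block 0.343). With a pair left out, Plk2 passed in 2 of 4 fits and Dram1 and Xpc in 1 of 4 each (adjusted p up to 0.0681, 0.0846 and 0.073). The other repair genes Ddb2, Polk and Rrm2b had log2 fold changes of -0.06, -0.04 and -0.15. Zmat3 (0.12, adjusted p = 0.0551) and Sesn1 (-0.03) did not pass. Of the 16 calls in culture, 10 held whichever pair was left out: Trp53, Ccng1, Trp53inp1, Gdf15, Perp, Pmaip1, Eda2r, Plk3, Btg2 and Gadd45a.

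**Figure D3:**
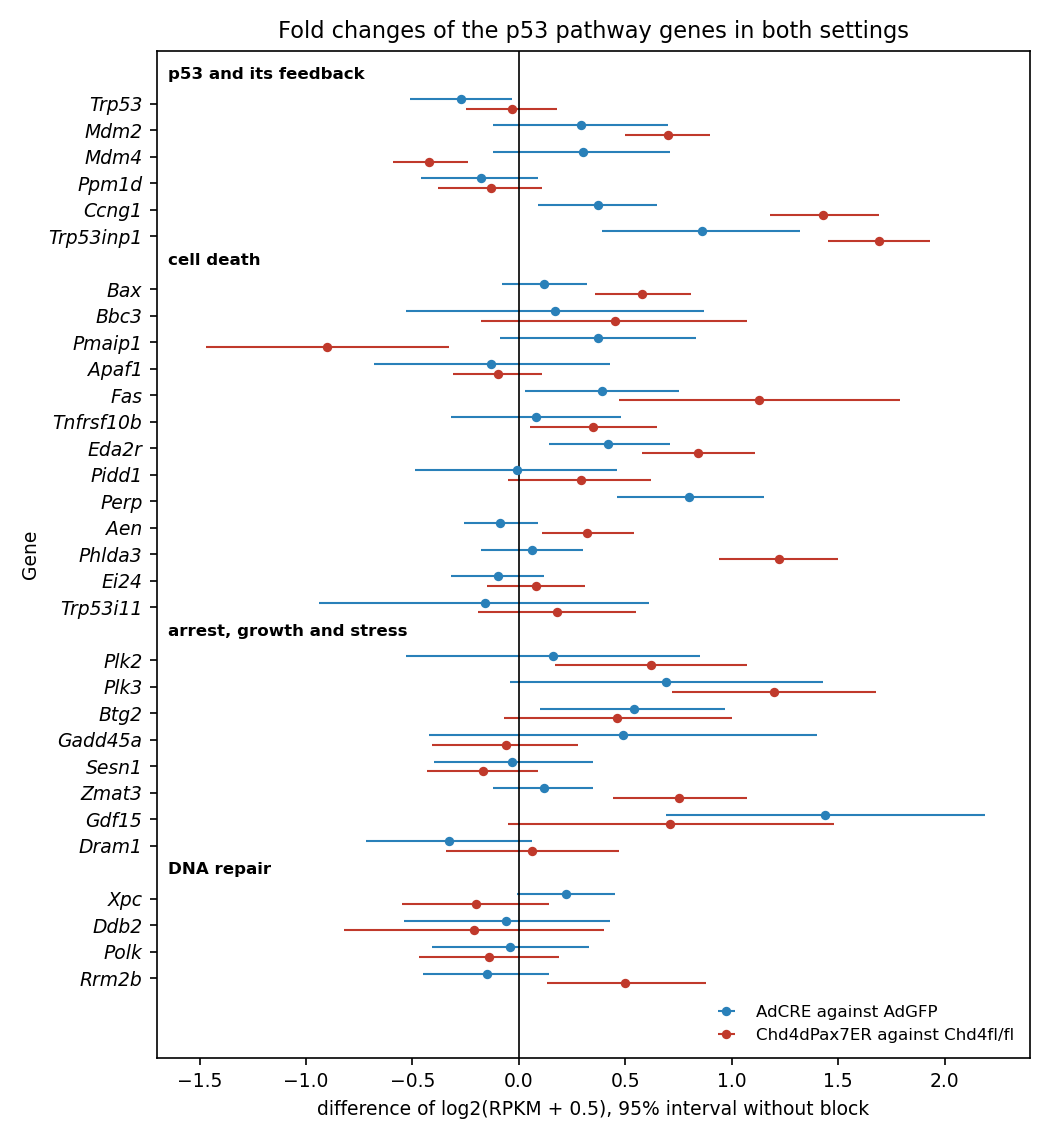
Log2 fold change of each p53 pathway gene with its 95% interval from the fits without a block, in myoblasts (blue) and sorted satellite cells (red), grouped by role. The intervals of a gene in the 2 settings do not meet for Ccng1, Trp53inp1, Phlda3, Bax, Aen, Zmat3, Mdm4 and Pmaip1, and Perp has a value in culture alone.

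Side by side, 14 of the 30 genes tested in both settings had positive fold changes in both, 6 in vivo alone, 4 in vitro alone and 6 were negative in both. Across these 30 genes, which share their libraries and are not independent, Pearson's r of the fold changes was 0.443 and Spearman's rho 0.452. Mdm2, Ccng1, Trp53inp1, Fas, Eda2r, Plk2 and Plk3 rose in both settings when the culture was read with the block, 7 of 30 against 7.97% of all 11941 genes. Of these, Plk2 and Fas in vivo lost the call with single libraries left out, and Mdm2, Fas and Plk2 in culture with single pairs left out. The fold change itself differed between settings for 6 genes (20.0% of 30, against 5.01% of 11941 genes). This was tested as the difference of the 2 limma estimates, both without the replicate block, with their combined standard errors. Phlda3 rose by 1.22 in vivo and held 159 ± 17 against 152 ± 14.3 RPKM in culture, where its log2 fold change was 0.06 (difference 1.16, SE 0.16, adjusted p = 0.00067). The difference for Ccng1 was 1.06 (SE 0.17, adjusted p = 0.00151). Trp53inp1 (0.84, adjusted p = 0.0439) and Zmat3 (0.64, adjusted p = 0.0408) were also further up in vivo.

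Pmaip1 and Mdm4 had opposite signs in the 2 settings, higher in AdCRE cultures and lower in Chd4dPax7ER cells. The difference was -1.27 for Pmaip1 (SE 0.32, adjusted p = 0.0311) and -0.71 for Mdm4 (SE 0.20, adjusted p = 0.0439). With TPM scaling Phlda3, Ccng1 and Pmaip1 differed, while Mdm4, Trp53inp1 and Zmat3 did not pass (adjusted p = 0.0704, 0.0637 and 0.0754). With the replicate block in both fits, 13 genes differed, against 16.1% of all genes, though the number does not pair libraries in vivo. A block in the culture fit alone was not tried. Gdf15 differed by -0.73 with an SE of 0.47 (adjusted p = 0.437), so the larger value in culture was within the error. Culture and sorted cells also differ in how Cre was delivered and how cells were isolated, which cannot be told apart here, and levels were not compared across the tables.

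Of a second list of p53 targets, 8 of 20 tested rose in vivo and none fell with limma (40.0% higher, median 0.22). Over all genes 14.7% rose and 11.9% fell. This list too was chosen with earlier results of these data known. The adenylate kinase gene Ak1 held 43.6 ± 8.10 RPKM in Chd4dPax7ER against 7.71 ± 2.31 (log2 fold change 2.45, adjusted p = 0.000119) and Psrc1, a microtubule regulator gene, 12.5 ± 1.24 against 2.62 ± 0.702 (2.08, adjusted p = 7.45e-05). Cpt1c of the carnitine palmitoyltransferase family held 6.90 ± 1.67 against 1.42 ± 0.441 (1.95, adjusted p = 0.000484) and the phosphatase gene Ptp4a3 5.61 ± 1.5 against 1.56 ± 0.232 (1.54, adjusted p = 0.000737). In culture 1 of 21 passed without the block: Ptp4a3 held 19.9 ± 1.43 RPKM in AdCRE against 11.8 ± 0.691 (0.74, adjusted p = 0.00958). With the block 9 rose and 3 fell (42.9% and 14.3%, against 17.5% and 18.7% of all genes). Cdkn1a, which encodes the p53-induced CDK inhibitor p21, rose in vivo (1.23, adjusted p = 0.000255) and with the block in culture (0.44, adjusted p = 0.00345, without it 0.138).

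**Figure D4:**
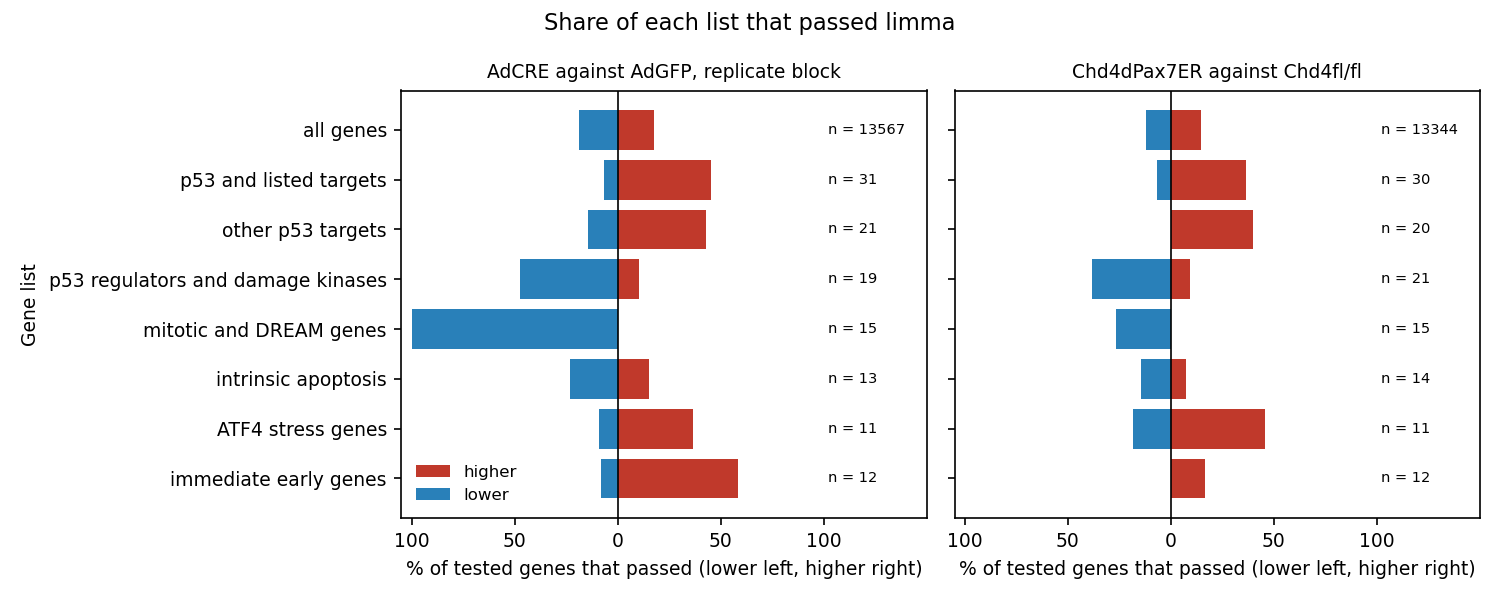
Percent of the tested genes of each list that passed limma as higher (red, right) or lower (blue, left), in myoblasts with the replicate block and in sorted cells without it, with all genes as the first bar. p53 and its listed targets reach 45.2% higher in culture and 36.7% in vivo, against 17.5% and 14.7% of all genes. The number of genes tested stands at the right. The in vivo bar of higher p53 regulators and damage kinases (9.52%) is Trp63 and Twist1 alone. Both entered the test only through the Chd4dPax7ER group, so that bar is a description and not a count of calls.

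Of 21 genes that act upstream of p53 or pass on DNA damage signals, 8 fell in vivo (38.1%, against 11.9% of all genes; median -0.25). Mdc1, the scaffold of damage foci, fell from 8.63 ± 0.575 to 4.13 ± 0.391 RPKM (log2 fold change -0.98, adjusted p = 0.000376) and the checkpoint kinase gene Chek1 from 8.53 ± 1.45 to 4.88 ± 1.29 (-0.77, adjusted p = 0.0217, held in 7 of 8 fits with a library left out). The p53 relative Trp63 held 1.74 ± 0.874 RPKM against 0.203 ± 0.0568, and Twist1, a transcription factor known to restrain p53, 1.58 ± 0.758 against 0.122 ± 0.184. These 2 genes were under 0.5 RPKM in every Chd4fl/fl library and entered the test only through the Chd4dPax7ER group, so their values are given as a description. In culture none of 19 passed without the block, and 9 fell and 2 rose with it (47.4% and 10.5%, against 18.7% and 17.5% of all genes). Chek1 (-0.85, block adjusted p = 0.000232) and Mdc1 (-0.71, block adjusted p = 0.000654) fell there too.

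Mitotic and replication genes that p53 represses indirectly, through p21 and the DREAM complex, numbered 15. In culture all 15 fell with the block (18.7% of all genes did) and none passed without it, with a median of -0.71. Mki67, the proliferation marker, held 18.4 ± 8.58 against 34.9 ± 12.7 RPKM (-0.98, block adjusted p = 0.000845) and the kinase gene Aurkb 10.7 ± 5.25 against 19.6 ± 7.52 (-0.92, block adjusted p = 0.000835). In vivo 4 of 15 fell (26.7%, against 11.9% of all genes), with a median of -0.49. These were Aurkb (-1.02, adjusted p = 0.0283), Bub1 (-0.94, adjusted p = 0.00565), Mki67 (-0.72, adjusted p = 0.0272) and Mcm4 (-0.61, adjusted p = 0.031). Of these, Bub1 alone passed whichever library was left out.

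Genes of the mitochondrial death pathway outside the p53 list passed in shares near or below those of all genes. In vivo 1 of 14 rose (7.14%), where 14.7% of all genes rose and 11.9% fell. The gene that rose was Bid, from 1.24 ± 0.307 to 3.90 ± 0.913 RPKM (log2 fold change 1.33, adjusted p = 0.00184), while Xiap, an inhibitor of apoptosis, fell (-0.40, adjusted p = 0.0108). In culture none of 13 passed without the block, and 2 rose and 3 fell with it (15.4% and 23.1%, against 17.5% and 18.7% of all genes). Bcl2l11 (0.50) and Casp9 (0.29) had the largest values.

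Some of the p53 genes also respond to other stress pathways, Gdf15 to ATF4 and Plk2, Plk3, Btg2 and Gadd45a to growth factors and cell handling. Of 11 ATF4 stress genes, 5 rose and 2 fell in vivo (45.5% and 18.2%, against 14.7% and 11.9% of all genes), with a median of 0.07. Sesn2 is on this list and on the second list of p53 targets, and its rise in vivo (0.51, limma adjusted p = 0.0308) is counted in both. Among those that passed were Fgf21 (log2 fold change 1.06, adjusted p = 0.00581), Atf5 (0.85, adjusted p = 0.0018), Ddit3 (0.76, adjusted p = 0.0343, held in 2 of 8 fits with a library left out) and Phgdh (-0.57, adjusted p = 0.0132). In culture none passed without the block, and 4 rose and 1 fell with it (Fgf21 0.58, Trib3 0.44). These are 36.4% and 9.09%, against 17.5% and 18.7% of all genes. Of 12 immediate early genes 2 rose in vivo (16.7%, near the 14.7% of all genes; median 0.14), Nr4a1 (1.29, adjusted p = 0.00404) and Jun (0.37, adjusted p = 0.0438, held in 1 of 8). In culture none passed without the block, and 7 rose and 1 fell with it (Zfp36 0.45, Atf3 0.44). Here the shares were 58.3% and 8.33%, against the same 17.5% and 18.7% of all genes. The part of both lists in the changes of the p53 pathway genes was not tested.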

How the data were processed

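The authors deposited 1 table of RPKM values per setting (46078 genes, 8 libraries each), with in vivo values rounded to 2 decimals. Per the submitters' processing notes, the tools included HISAT2 2.1.0, cutadapt 1.18, FastQC 0.11.8 and Picard 2.18.15, and the build was mm10 (GRCm38); which tool counted reads, and over which gene lengths, was not given in the sources used here. Each table was fitted alone with limma 3.58.1 (R 4.3.3) on log2(RPKM + 0.5) with a variance trend, for genes at 0.5 RPKM or more in at least 4 of 8 libraries, with Benjamini-Hochberg adjustment over all genes tested; the steps were tested on simulated data. RPKM keeps no read depth, so no counting error can be given. The members and lists were chosen with earlier results of these data known, and the 4 role groups, from textbook functions, after the values were seen. Per-library values are given for members that passed (in vitro also with the block) or had an absolute log2 fold change of at least 0.5; of other lists, up to 4 genes that passed are named, or 2 with the largest change where none did, and Cdkn1a was added afterwards. Deviations from group means correlated at 0.711 to 0.856 between same-numbered libraries in vitro, where the replicate number therefore pairs them, and at -0.0967 to 0.0499 in vivo, where it does not. Alternatives were the replicate block, pseudocounts of 0.1 and 1, no filter, TPM and quantile scaling, and each library left out; leaving out each in vitro pair under the block was chosen after seeing the data. Promoters are RefSeq's, searched with Python 3.11.15. The 8 ATAC-seq samples were not analysed here. One result on the mitochondrial death list is not reported here.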

Additional observations from a re-analysis of the deposited data

Results flagged for a closer look

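Outlying libraries were looked for in 122 groups of 4 by Dixon's ratio, which flags about 1 in 20 groups by chance, and 5 were found. Trp53 in AdCRE replicate 4 held 33.4 RPKM, above 26.6 to 27.2 in the others, and in Chd4fl/fl replicate 3 it held 38.0, below 43.7 to 44.3. Plk3 in replicate 1 held 15.0 RPKM in AdCRE (others 6.66 to 7.75) and 9.17 in AdGFP (others 3.74 to 4.51), the 2 libraries of 1 pair. Eda2r in Chd4dPax7ER replicate 2 held 50.7 RPKM against 39.5 to 39.9; without that library its log2 fold change was 0.76, and it passed.

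Fold changes that differed between the settings, in vivo minus in vitro, were 1.16 for Phlda3, 1.06 for Ccng1, 0.84 for Trp53inp1, 0.64 for Zmat3, -0.71 for Mdm4 and -1.27 for Pmaip1. Each passed a test of the difference itself over 11941 genes (adjusted p from 0.00067 to 0.0439), but with TPM scaling Trp53inp1, Zmat3 and Mdm4 did not (0.0637, 0.0754 and 0.0704).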

How the results depend on the processing

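In culture 0 of 31 genes passed without the replicate block under each pseudocount, filter, scaling and left-out library tried (range 0 to 0). With the replicate block 16 passed, and with it and pairs 1, 2, 3 or 4 left out 14, 14, 12 and 11. In vivo 13 passed, and 10 to 13 with a library left out; 13 with either pseudocount, 11 without a filter, 11 with TPM and 12 with quantile scaling. The replicate number, which does not pair libraries in vivo, gave 11 as a block there. Fold changes between settings differed for 6 genes, for 13 with the replicate block and for 3 with TPM scaling. The cause of these changes was not tested, beyond the block removing what paired libraries share. With a library left out, Plk2 in culture ranged from -0.07 (without AdGFP replicate 4) to 0.36 on the log2 scale. Scaling moved the median of all genes by at most 0.05 (log2).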
